A study of Mus musculus with 16 samples.

Results

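The genes described here make, conjugate, carry and sense bile acids: Cyp7a1, Cyp8b1, Cyp27a1, Cyp7b1, Baat, Nr1h4, Nr0b2, Slc10a1, Slco1a1 and Abcb11. They were taken by symbol from the liver and fat tables, and all 10 were present among the 22322 genes listed there. The study measured RNA in DIO (diet-induced obese) mice that received intraperitoneal halofuginone at 100 µg/kg every 2 days or vehicle, with tissue collected after 8 weeks. Halofuginone is a small molecule that inhibits prolyl-tRNA synthetase. The 4 groups were liver labelled HFD (vehicle, 5 libraries), liver labelled H100 (halofuginone, 5 libraries), white adipose tissue labelled HFD (3 libraries) and white adipose tissue labelled H100 (3 libraries). Obesity by diet was common to all 4 groups, and no lean group was analysed here. Strain, sex, age, fat depot, genotype beyond the group name, time of day and feeding state at collection are not given in the sources used here. The labels also do not say whether the libraries of a group came from separate animals, so the p-values measure the spread between these libraries.

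Bile acids are made from cholesterol in hepatocytes by a pair of routes. In the classic route CYP7A1 adds the first hydroxyl group to the sterol ring and sets the rate of synthesis, and CYP8B1 then diverts the product towards cholic acid. In the alternative route CYP27A1 oxidises the side chain in mitochondria and CYP7B1 hydroxylates the resulting oxysterol. BAAT joins the acids to taurine or glycine, ABCB11 exports them into bile, and SLC10A1 and SLCO1A1 are uptake carriers that take bile acids and other anions from blood. The receptor FXR, encoded by Nr1h4, binds bile acids and induces Nr0b2, whose product SHP represses synthesis genes together with a hormone sent from the gut, FGF15.

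Promoters were looked up because several of these genes moved together. RefSeq windows of 300 bases, from 250 before to 50 after the transcript start, were at hand for 7 of the 10 genes in build GRCm38.p6. The submitters' processing notes name mm39, so these coordinates belong to the sequence table and not to the expression tables. Printed 5′ to 3′ on the gene's strand are Cyp8b1 at chr9:121916256-121916555 (minus strand), Cyp27a1 at chr1:74713285-74713584 (plus strand) and Abcb11 at chr2:69342567-69342866 (minus strand). These were the 3 available members with lower normalised counts in halofuginone liver replicates 2 to 5 than in every vehicle liver library. Capitals mark a match to a searched motif.
Cyp8b1: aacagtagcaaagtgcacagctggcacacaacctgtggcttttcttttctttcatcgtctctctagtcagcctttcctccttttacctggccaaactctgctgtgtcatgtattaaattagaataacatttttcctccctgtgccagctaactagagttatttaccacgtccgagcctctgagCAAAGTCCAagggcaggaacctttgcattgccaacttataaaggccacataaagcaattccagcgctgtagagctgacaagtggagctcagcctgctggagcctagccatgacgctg
Cyp27a1: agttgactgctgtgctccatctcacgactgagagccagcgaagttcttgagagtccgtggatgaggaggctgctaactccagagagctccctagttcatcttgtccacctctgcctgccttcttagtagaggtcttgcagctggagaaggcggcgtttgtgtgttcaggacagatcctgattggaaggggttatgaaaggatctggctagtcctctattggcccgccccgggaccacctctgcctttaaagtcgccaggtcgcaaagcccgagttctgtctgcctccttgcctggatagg
Abcb11: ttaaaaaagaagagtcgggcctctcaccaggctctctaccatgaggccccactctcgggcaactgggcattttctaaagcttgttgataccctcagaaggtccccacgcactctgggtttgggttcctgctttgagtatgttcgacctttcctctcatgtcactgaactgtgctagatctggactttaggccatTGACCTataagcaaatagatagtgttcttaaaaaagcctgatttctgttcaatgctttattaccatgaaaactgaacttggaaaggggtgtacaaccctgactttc
The searched motifs, on both strands, were an inverted repeat bound by FXR (GGTCANTGACC), an element bound by LRH-1 (CAAGGTCA), an element bound by HNF4 (CAAAGTCCA), the nuclear receptor core AGGTCA, which the LRH-1 element contains, and the C/EBP-ATF response element TGATGNAA. Cyp8b1 held the HNF4 element CAAAGTCCA from −67 to −59 relative to the start, a sequence found in 0.475% of 32851 windows of this length. Abcb11 held the core on the opposite strand (TGACCT) from −56 to −51, as did 16.3% of windows on either strand. The Cyp27a1 and Nr0b2 windows held no match to these letters. Outside the printed sequences, the core was also present in the windows of Nr1h4 and Slco1a1 and in the Slc10a1 window at chr12:80968030-80968329. Slc10a1 also had a window at chr12:80968656-80968955, which held no match, so the 7 genes had 8 windows. The inverted repeat, the LRH-1 element and the C/EBP-ATF element, found in 0.0396%, 1.56% and 3.97% of all windows, had no match in any of the 8 member windows. A match describes letters in a window and is not evidence of binding. A missing match does not show that a site is absent, because only these exact letters were searched, in 300 bases.

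Liver libraries held 20309956 to 31980683 counts and fat libraries 17070614 to 21387799. The first principal component of the liver libraries carried 63.9% of the variance and placed the vehicle libraries between −29.0 and −22.5. Halofuginone liver replicate 1 lay at −19.8, beside the vehicle libraries, while replicates 2 to 5 lay between 24.2 and 48.0. The result of every member and the counts of every gene list in liver are therefore given with and without replicate 1. Replicate 1 was singled out by its values in these same data, so p-values without it are not independent support. Dropping the treated library least like the others can make those p-values too small. Of 12311 genes tested in liver, 23.2% were called at an adjusted p under 0.05, and without replicate 1 42.8% of 12422 genes were called. Adjusted p-values are from the quasi-likelihood test of edgeR, adjusted by Benjamini-Hochberg over all genes tested. CPM denotes the count normalised to the size of its library, and fold changes of edgeR are on the log2 scale with a standard error (SE).

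In liver, 3 of the 10 genes were called, against 23.2% of all genes tested. Cyp7b1 rose (12.7% of all genes did), and Cyp7a1 and Cyp27a1 fell (10.5% of all genes did). Without replicate 1, 5 of 10 were called, against 42.8% of all genes: Cyp7b1 rose (21.2% of all genes), and Cyp7a1, Cyp8b1, Cyp27a1 and Abcb11 fell (21.6% of all genes). The oxysterol hydroxylase thus moved opposite to the other called members, and the conjugating enzyme, the FXR gene, the SHP gene and the uptake carriers were not called in either fit. With all 10 livers, no member had all its halofuginone CPM values on the same side of the vehicle range, a pattern seen in 11.6% of genes tested. Without replicate 1, 5 of 10 members did so, 1 above and 4 below, against 35% of genes tested.

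**Figure D1:**
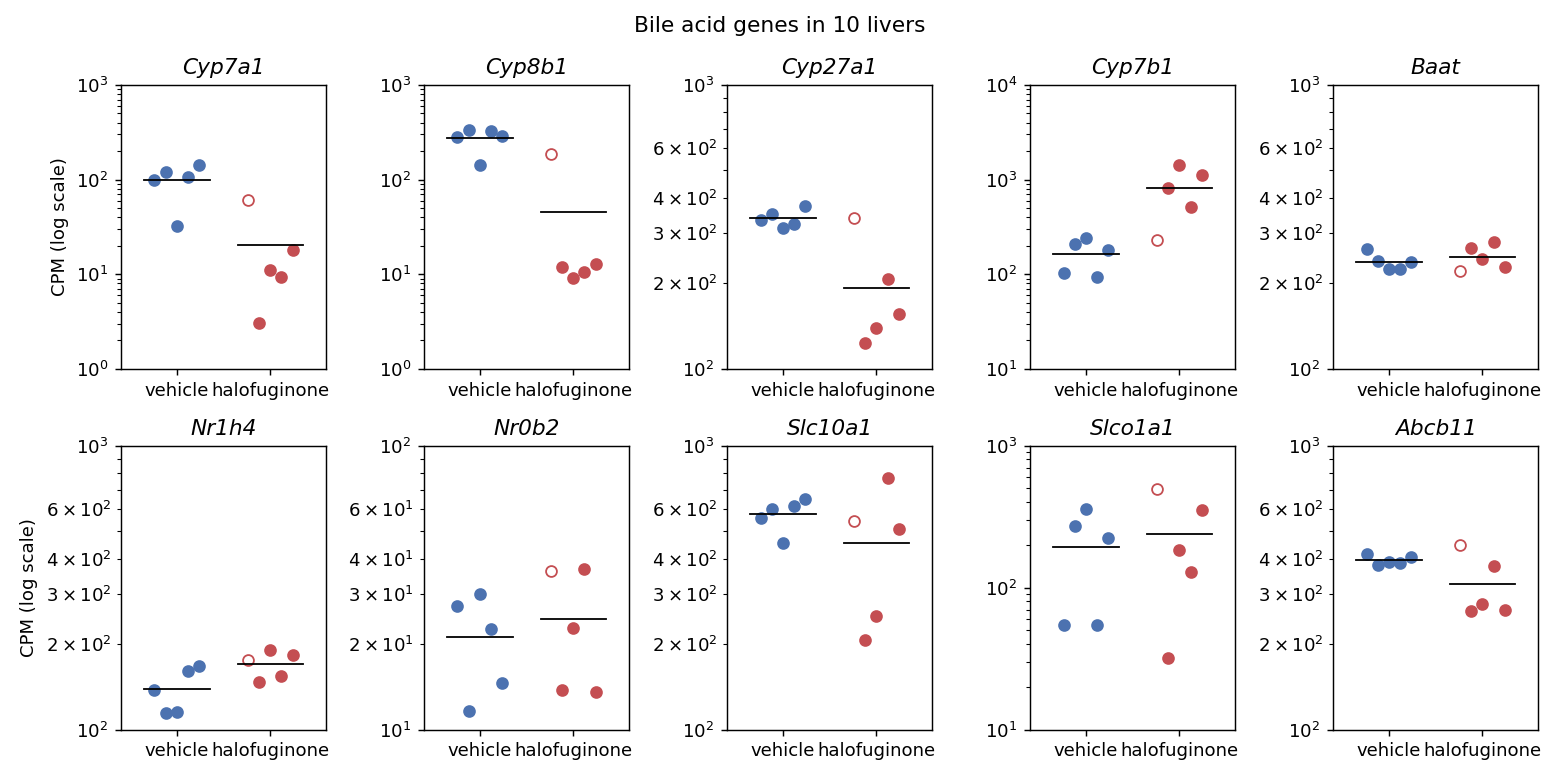
CPM (log axis) of the 10 genes in each liver library, vehicle in blue and halofuginone in red, with group means as lines. The open red circle is halofuginone replicate 1, which lies inside the vehicle range for Cyp7a1, Cyp8b1, Cyp27a1, Cyp7b1 and Slc10a1.

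Cyp7a1 (ENSMUSG00000028240), the rate-limiting enzyme of the classic route, fell in treated liver. Its CPM in vehicle libraries 1 to 5 was 98.9, 119, 32.4, 107 and 144. Under halofuginone it was 60.4, 3.02, 11.1, 9.32 and 17.9. Replicates 2 to 5 all lay below the lowest vehicle library, and replicate 1 lay inside the vehicle range. The means were 100.2 ± 41.6 (SD, n = 5) and 20.3 ± 23.0 (SD, n = 5). The log2 fold change was −2.30 (SE 0.67, adjusted p = 0.0321). Without replicate 1 it was −3.30 (SE 0.51, adjusted p = 0.000601), and the mean of replicates 2 to 5 was 9.69-fold below the vehicle mean. The call with all livers was lost when any 1 of 7 other libraries was left out, namely vehicle replicates 1, 2, 4 or 5 or halofuginone replicates 3, 4 or 5, with adjusted p-values between 0.0552 and 0.0804.

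Cyp8b1 (ENSMUSG00000050445), which sets how much cholic acid is made, had the widest separation of the 10 genes in 4 of the 5 treated livers. Vehicle libraries 1 to 5 were at 281, 335, 144, 326 and 287 CPM. Halofuginone libraries 1 to 5 were at 186, 11.8, 9.04, 10.5 and 12.7 CPM. Replicates 2 to 5 clustered tightly, at 11 ± 1.61 CPM (SD, n = 4), which was 25.0-fold below the vehicle mean of 275 ± 76.7 (SD, n = 5). Replicate 1 was above vehicle replicate 3 and below the other vehicle libraries. With all livers the log2 fold change of −2.57 (SE 0.86) missed the threshold, at an adjusted p of 0.0511. Without replicate 1 Cyp8b1 fell by 4.67 on the log2 scale (SE 0.26, adjusted p = 1.21e-06). It also passed with all livers in DESeq2, at an adjusted p of 0.0205.

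Cyp27a1 (ENSMUSG00000026170), the mitochondrial side-chain oxidase, fell. Vehicle libraries 1 to 5 were at 334, 350.5, 315, 324 and 374 CPM, a coefficient of variation of 6.94%. Halofuginone libraries 1 to 5 were at 341, 124, 139, 208 and 156 CPM. Replicate 1 lay within the narrow vehicle range and the other treated livers below it. The log2 fold change was −0.81 (SE 0.25, adjusted p = 0.0389) and, without replicate 1, −1.15 (SE 0.15, adjusted p = 0.000192), with a mean of replicates 2 to 5 that was 2.17-fold below vehicle. With all livers, leaving out any 1 of the 9 libraries other than halofuginone replicate 1 ended the call, at adjusted p-values of 0.0629 to 0.0968.

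Cyp7b1 (ENSMUSG00000039519), the oxysterol hydroxylase of the alternative route, rose. Vehicle libraries 1 to 5 were at 103, 209.7, 240.2, 94.0 and 179 CPM. Halofuginone libraries 1 to 5 were at 232, 820.0, 1423, 510.4 and 1127 CPM. Replicates 2 to 5 all lay above the highest vehicle library, while replicate 1 lay just below it. On the deposited FPKM scale, replicate 1 was at 108, above the highest vehicle value of 102, so the overlap depends on the scale. The mean went from 165 ± 64.7 to 823 ± 474 CPM (SD, n = 5 each), 4.98-fold higher. The log2 fold change was 2.31 (SE 0.45, adjusted p = 0.00866) and, without replicate 1, 2.52 (SE 0.35, adjusted p = 0.000294). Cyp7b1 was the 1 member called under every alternative tried, with adjusted p-values from 1.70e-06 to 0.0249.

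**Figure D2:**
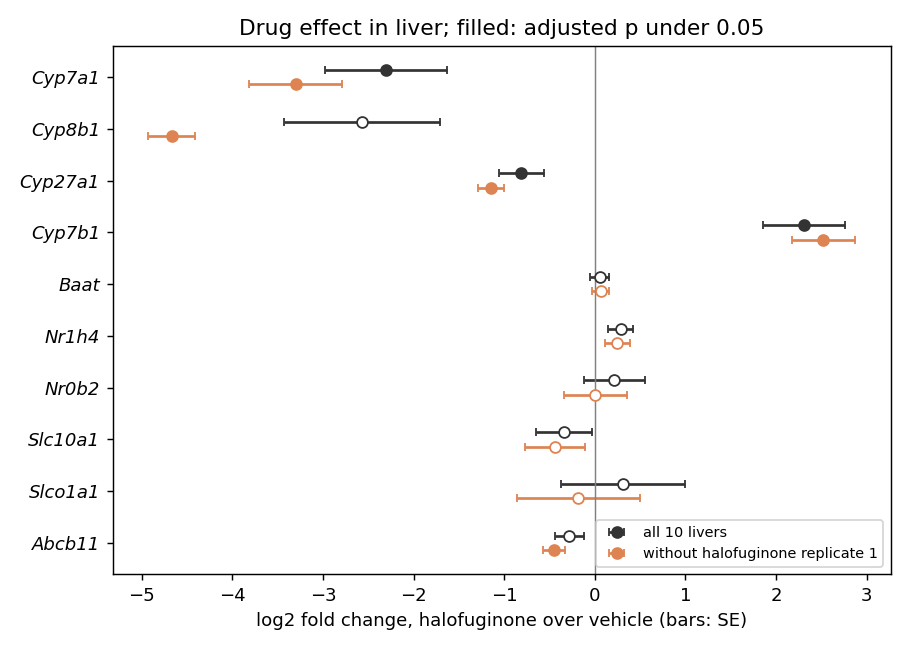
Log2 fold change in liver (halofuginone over vehicle) of the 10 genes with bars of 1 SE, for all 10 livers (black) and without halofuginone replicate 1 (orange). Filled points have an adjusted p under 0.05: 3 of 10 with all livers and 5 of 10 without replicate 1.

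Ratios within a library show the shift in the makeup of the enzyme transcripts, here per length from FPKM and without a test. The ratio of Cyp7b1 to Cyp7a1 in vehicle libraries 1 to 5 was 2.01, 3.40, 14.3, 1.70 and 2.40. Under halofuginone it was 7.39, 519.9, 247, 105 and 121, so replicates 2 to 5 were above all vehicle libraries and replicate 1 was below vehicle replicate 3. The ratio of Cyp7b1 to Cyp27a1, the consecutive enzymes of the alternative route, was 0.270, 0.523, 0.667, 0.253 and 0.419 in vehicle. It was 0.593, 5.79, 8.95, 2.14 and 6.32 under halofuginone, where Cyp7b1 exceeded Cyp27a1 in replicates 2 to 5 and in no vehicle library. Cyp8b1 to Cyp7a1 was 6.07, 6.03, 9.52, 6.54 and 4.27 in vehicle and 6.59, 8.30, 1.75, 2.39 and 1.52 under halofuginone. All vehicle libraries lay above halofuginone replicates 3, 4 and 5 in this ratio, while replicates 1 and 2 lay inside the vehicle range.

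**Figure D3:**
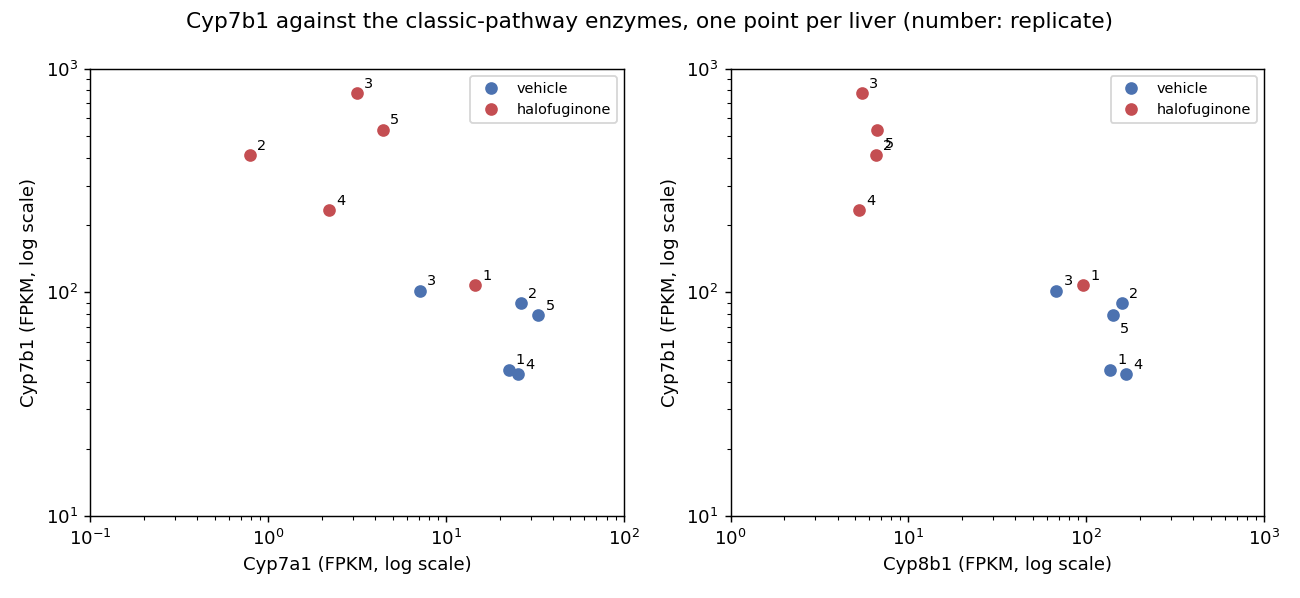
FPKM of Cyp7b1 against Cyp7a1 (left) and Cyp8b1 (right) in the 10 livers, both axes logarithmic, each point labelled with its replicate number. Halofuginone replicates 2 to 5 stand at the upper left of both panels. Halofuginone replicate 1 stands near the vehicle libraries, with Cyp7b1 at 108 FPKM, just above the highest vehicle value of 102.

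Baat (ENSMUSG00000039653), the conjugating enzyme, gave one of the tightest measurements. Vehicle libraries 1 to 5 were at 264, 239.6, 224, 224 and 239 CPM and halofuginone libraries at 221, 267, 243, 279 and 228 CPM. The ranges overlapped, and the log2 fold change was 0.05 (SE 0.10, adjusted p = 0.729), or 0.06 without replicate 1 (SE 0.10, adjusted p = 0.624).

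Neither the FXR gene nor the SHP gene was called. Nr1h4 (ENSMUSG00000047638), encoding FXR, was at 138, 115, 115, 161 and 168 CPM in vehicle libraries 1 to 5. Under halofuginone it was at 176, 147, 191, 154 and 183 CPM, with 3 of 5 treated livers above the highest vehicle library. The log2 fold change was 0.29 (SE 0.14, adjusted p = 0.144), or 0.25 without replicate 1 (SE 0.14, adjusted p = 0.173). Nr0b2 (ENSMUSG00000037583), encoding SHP, was at 27.2, 11.6, 29.9, 22.6 and 14.6 CPM in vehicle and at 36.2, 13.8, 22.8, 36.8 and 13.5 CPM under halofuginone. Its values were spread in both groups, and the log2 fold change was 0.22 (SE 0.34, adjusted p = 0.669). Without replicate 1 it was 0.0077 (SE 0.35, adjusted p = 0.988). Replicates 1 and 4 lay above the vehicle range of Nr0b2 and the other 3 treated livers inside it.

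Among the carriers, Slc10a1 (ENSMUSG00000021135), the sodium-dependent uptake carrier, had vehicle values of 558, 599.6, 453, 611 and 652 CPM. Under halofuginone it was at 541, 206, 252, 766 and 508 CPM. Replicates 2 and 3 were below the vehicle range, replicate 4 was above it, and the log2 fold change of −0.34 (SE 0.31, adjusted p = 0.445) was not called, nor was that of −0.44 without replicate 1 (SE 0.33, adjusted p = 0.318). Slco1a1 (ENSMUSG00000041698), an organic anion uptake carrier, was the most variable of the 10 genes in vehicle, at 54.9, 274, 356, 54.5 and 224 CPM. Its halofuginone values were 499, 31.8, 183, 129 and 350.0 CPM, so the groups overlapped widely. The log2 fold change was 0.31 (SE 0.68, adjusted p = 0.766) and turned to −0.18 (SE 0.68, adjusted p = 0.851) without replicate 1. Slco1a1 has close paralogs, and reads shared with them may have been split in the authors' counting.

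Abcb11 (ENSMUSG00000027048), the canalicular export pump, had the narrowest vehicle spread, at 416, 379, 389.6, 387 and 405 CPM. Under halofuginone it was at 447, 262, 278, 376 and 265 CPM. Replicate 1 lay above all vehicle libraries and the other 4 below them. On the deposited FPKM scale, replicate 4 was at 75.9, inside the vehicle range of 71.7 to 80.5, so its place depends on the scale. With all livers the log2 fold change was −0.28 (SE 0.16, adjusted p = 0.225). Without replicate 1 Abcb11 fell by 0.45 on the log2 scale (SE 0.12, adjusted p = 0.0135).

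On the per-length FPKM scale, the order of levels in vehicle liver was Slc10a1 (325 ± 48.8), Cyp27a1 (170.2 ± 13.0), Cyp8b1 (134 ± 39), Baat (116 ± 8.22), Abcb11 (76.6 ± 3.95), Cyp7b1 (71.8 ± 26.5), Nr1h4 (67.0 ± 13.7), Slco1a1 (52.1 ± 35.6), Cyp7a1 (22.9 ± 9.61) and Nr0b2 (17.7 ± 6.53; SD, n = 5 each). Only Slc10a1 and Cyp27a1, and Baat and Abcb11, were neighbours whose library ranges did not overlap. Under halofuginone Cyp7b1 headed the order at 412 ± 261 FPKM, followed by Slc10a1 at 278 ± 126 and Baat at 135 ± 16. Cyp8b1 (24.0 ± 40.2), Nr0b2 (22.7 ± 9.74) and Cyp7a1 (5.02 ± 5.49) closed it, and the ranges of all neighbours overlapped. This order of means includes replicate 1, where Cyp8b1 was at 96.0 FPKM. In replicates 2 to 5 Cyp8b1 was at 6.56, 5.48, 5.29 and 6.69 FPKM. Nr0b2 was higher in each of these, at 13.2, 23.8, 32.1 and 12.2 FPKM. Slc10a1 exceeded Cyp7b1 in replicate 1 (324 beside 108 FPKM) and in replicate 4 (448 beside 233 FPKM).

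Of 17 other genes of bile acid synthesis, 16 were tested, 5 fell and 0 rose, against 10.5% of all genes that fell. The median log2 fold change was −0.48, beside 0.02 over all genes tested. Cyp46a1, a cholesterol hydroxylase best known from brain, fell from 5.30 ± 1.57 to 1.08 ± 0.794 CPM (log2 fold change −2.31, SE 0.45, adjusted p = 0.00866). Hsd3b7, which acts after CYP7A1 or CYP7B1, fell from 199.7 ± 25.0 to 137 ± 36.2 CPM (−0.54, SE 0.17, adjusted p = 0.0423). Slc27a5, the bile acid-CoA ligase that precedes BAAT, fell from 746 ± 43.7 to 509 ± 118 CPM (−0.55 on the log2 scale, SE 0.16, adjusted p = 0.0321). The peroxisomal side-chain genes Scp2 (−0.53, SE 0.16, adjusted p = 0.0331) and Hsd17b4 (−0.51, SE 0.15, adjusted p = 0.0357) fell in all 5 treated livers to below the vehicle range. Akr1d1, the reductase that follows HSD3B7, was at −2.27 on the log2 scale (SE 0.86, adjusted p = 0.0759) with all livers and at −3.95 (adjusted p = 0.000421) without replicate 1. Without replicate 1, 10 of the 16 fell, against 21.6% of all genes, and 0 rose. The count of 5 depended on scaling and on single libraries: it was 1 when libraries were scaled by their total alone, and 1 without any 1 of vehicle replicates 1, 2, 4 or 5 or halofuginone replicates 3, 4 or 5. It was 3 without vehicle replicate 3 or halofuginone replicate 2.

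Of 17 other transport genes, 14 were tested, 4 fell (10.5% of all genes did) and 0 rose, with a median log2 fold change of 0.01. Slc10a2, the sodium-dependent carrier best known from ileum and bile duct cells, was at 72.1, 49.3, 78.5, 36.1 and 41.3 CPM in vehicle. It was at 12.2, 11.9, 5.49, 4.55 and 8.87 CPM under halofuginone, below every vehicle library in all 5 livers, replicate 1 included (log2 fold change −2.69, SE 0.32, adjusted p = 0.00155). Abcc3, a basolateral exporter, was at 232, 297, 227, 248 and 252 CPM in vehicle and at 136, 40.5, 86.1, 81.9 and 69.4 CPM under halofuginone, again without overlap (−1.60, SE 0.26, adjusted p = 0.00465). Slco2b1, an uptake carrier, fell from 179 ± 14.1 to 88.7 ± 30.2 CPM (−1.02, SE 0.21, adjusted p = 0.0101). Abcg2, an apical exporter, fell from 87.1 ± 16.7 to 44.7 ± 14.2 CPM (−0.96, SE 0.21, adjusted p = 0.0128). Without replicate 1, 6 of 14 fell, against 21.6% of all genes, and 0 rose. The additional calls were Slco1a4, at a log2 fold change of −4.07 (adjusted p = 0.000312), and Slco1b2, at −1.48 (adjusted p = 0.000418), both uptake carriers. With all livers their adjusted p-values were 0.0652 and 0.0591.

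Of 15 other regulators, 11 were tested, 2 fell and 1 rose, against 10.5% and 12.7% of all genes, with a median log2 fold change of −0.04. Without replicate 1, 4 fell and 1 rose, against 21.6% and 21.2%. Hnf4a, a hepatocyte nuclear receptor, fell from 894 ± 143 to 546 ± 142 CPM (−0.71, SE 0.20, adjusted p = 0.0269) and without replicate 1 by 0.80 (adjusted p = 0.00982). Ppargc1a, a coactivator, fell from 5.34 ± 0.961 to 2.84 ± 1.61 CPM (−0.92, SE 0.31, adjusted p = 0.0492). Klb, the co-receptor for FGF15 and FGF21, rose from 32.8 ± 3.06 to 48.4 ± 7.25 CPM (0.56, SE 0.11, adjusted p = 0.0104), with all 5 treated livers above the vehicle range. Fgfr4, the receptor that pairs with Klb for FGF15, had a log2 fold change of −0.47 (SE 0.25, adjusted p = 0.184), and without replicate 1 of −0.74 (adjusted p = 0.0108). Nr1i3, another listed regulator, went from 119 ± 20.2 to 43.0 ± 58.1 CPM. It was not called with all livers (−1.47, SE 0.77, edgeR adjusted p = 0.178). Without replicate 1 Nr1i3 fell by 2.79 on the log2 scale (edgeR adjusted p = 0.00243). Rxra, the partner of FXR, was at 0.04 (SE 0.12, adjusted p = 0.810), and Nr5a2, encoding LRH-1, at 0.20 (SE 0.12, adjusted p = 0.239). Fgf15, made in ileum, had 0 counts in all 10 livers. The count of regulators that fell was 0 without any 1 of vehicle replicates 1, 2 or 3 or halofuginone replicates 3 or 5. It was 1 without vehicle replicates 4 or 5 or halofuginone replicates 2 or 4, left out 1 at a time.

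Genes that FXR induces in liver did not move in 1 direction. Of 10 listed, 8 were tested, 2 fell and 1 rose, against 10.5% and 12.7% of all genes, with a median log2 fold change of −0.24. Without replicate 1, 3 fell and 1 rose, against 21.6% and 21.2%, and the median was −0.34. The count that fell was 1 without any 1 of vehicle replicates 2 or 4 or halofuginone replicate 3. Apoc2, an apolipoprotein, fell from 196 ± 45.9 to 87.2 ± 22.7 CPM (−1.17, SE 0.21, adjusted p = 0.00675), and Pltp, the phospholipid transfer protein, from 49.9 ± 11.1 to 30.8 ± 6.07 CPM (−0.70, SE 0.18, adjusted p = 0.0214). Fetub, a secreted protease inhibitor, rose from 464 ± 38.4 to 900.1 ± 297 CPM (0.95, SE 0.21, adjusted p = 0.0136). Slc51a and Slc51b, which form an exporter, were too low in liver to be tested.

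**Figure D4:**
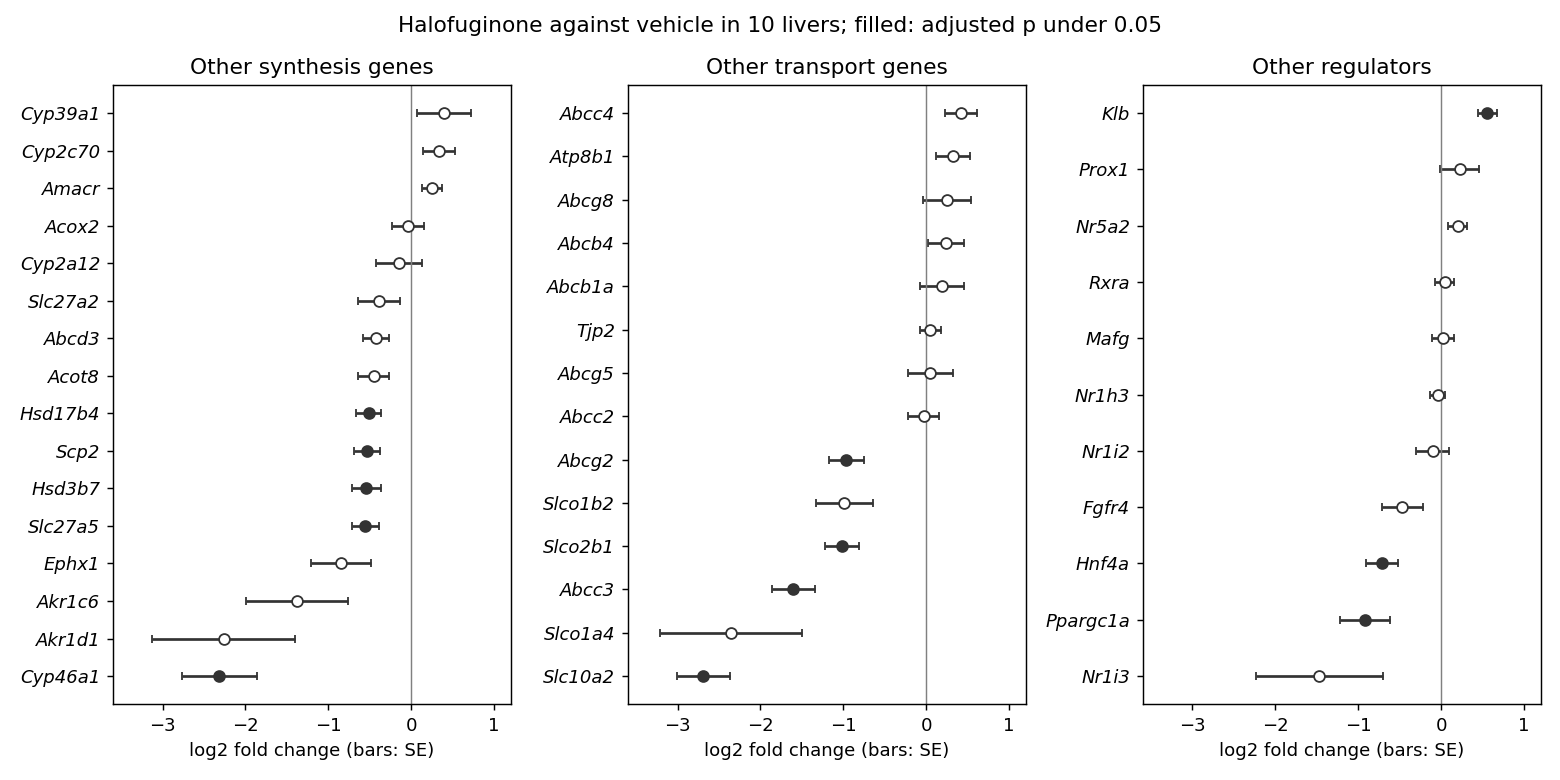
Log2 fold change in liver (halofuginone over vehicle) with bars of 1 SE for the tested genes of 3 lists: other synthesis genes, other transport genes and other regulators. Filled points have an adjusted p under 0.05; Slc10a2 (−2.69) and Cyp46a1 (−2.31) are the lowest among the filled points and Klb (0.56) is the filled point above 0.

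Other markers moved in the same livers, and fewer cells of a type and less RNA per cell cannot be told apart in bulk tissue. In all genes tested, 10.5% fell and 12.7% rose, and without replicate 1 21.6% and 21.2%. Of 8 pericentral hepatocyte markers, 4 fell (Glul, Oat, Slc1a2 and Rhbg) and 0 rose, and without replicate 1 6 fell. The count was 2 without any 1 of vehicle replicates 2, 4 or 5 or halofuginone replicates 2, 3 or 4. The uncalled Lgr5 and Axin2 had log2 fold changes of 0.13 and 0.38. The summed level of the 8 pericentral markers was 13978 to 17409.7 CPM in vehicle and 3462 to 14464 under halofuginone, where the highest was replicate 1. Most of it was Cyp2e1, with a mean of 12743 ± 1401 CPM in vehicle and 6422 ± 4173 under halofuginone. Cyp2e1 was not called with all livers (edgeR adjusted p = 0.0915). Of 8 periportal markers, 0 were called (1 lower without replicate 1, Cyp2f2), at sums of 4892 to 7053 and 4406 to 7301 CPM. Of 8 general hepatocyte markers, 1 fell (Ttr) and 0 rose. Without replicate 1, 4 fell (Alb, Apoa1, Apob and Ttr) and 1 rose (Fgb). The summed level was 120489 to 141583 CPM in vehicle and 54862 to 112714 under halofuginone, again highest in replicate 1. Most of this sum was Alb, with a mean of 94061 ± 5567 CPM in vehicle and 51709.5 ± 21744 under halofuginone. The mean of Fgb was 5957 and 8852 CPM, that of Ahsg 7941 and 11582 CPM, and neither was called with all livers. The part of these markers in the member results was not tested.

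Bile duct, immune, vessel and fat cell markers were low beside those of hepatocytes. Cholangiocyte markers summed to 114 to 188 CPM in vehicle and 92.7 to 119 under halofuginone. Of these 8, 6 were tested and 1 fell (Spp1), and Krt19 had a mean of 0.917 and 0.557 CPM. The uncalled Tm4sf4 had the highest mean of them, at 98.9 and 72.5 CPM. Kupffer cell markers (7 of 7 tested, 0 called) summed to 287 to 469 and 279.6 to 593 CPM. Without replicate 1, 2 of these 7 fell (Clec4f and Vsig4), and their median log2 fold change went from −0.04 to −0.43. Of 6 endothelial markers 3 fell and 2 rose (4 and 1 without replicate 1), at sums of 259 to 289 and 243 to 302 CPM. Of 6 stellate cell markers 3 fell (4 without replicate 1), at 242 to 326 and 164 to 264 CPM. Of 7 adipocyte markers 3 were tested and 2 fell (Cfd and Fabp4), at 52.5 to 129 and 9.93 to 60.9 CPM, with Lep at 0 in every liver. The uncalled Cidec had the highest mean of this list, at 56.9 and 21.8 CPM, while Adipoq had a mean of 0.0154 and 0 CPM. Lymphocyte markers (2 of 5 tested, 0 called) summed to 1.04 to 2.14 and 1.04 to 7.19 CPM. Of 5 erythrocyte markers 1 fell (Alas2), at 135 to 249 and 72.8 to 135 CPM. Alas2 had the highest mean of this list, at 89.3 and 40.9 CPM. No globin was called, and the highest, Hbb-bs, had a mean of 36.5 and 31.0 CPM (edgeR adjusted p = 0.719). The counts called for cholangiocyte, adipocyte, lymphocyte and erythrocyte markers were the same without replicate 1. Replicate 1 had the highest sum of the treated livers for Kupffer cell, endothelial, stellate, lymphocyte and erythrocyte markers.

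Over the 10 livers, Cyp7a1, Cyp8b1 and Cyp27a1 varied together, with Pearson's r of log2 CPM of 0.92 to 0.94 between pairs. These points share the drug contrast and replicate 1, and r is a description. Among 8819 genes averaging 5 CPM or more, those with the pattern most like Cyp7a1 were Slc27a1 (r = 0.979), Rassf3 (0.978) and Topbp1 (0.976). Closest to Cyp27a1 were Rdh9 (0.995), Hsd17b11 (0.992) and Akr1d1 (0.992), the last a bile acid synthesis gene. Closest to Cyp7b1 were Fam98a (0.986), Rnf2 (0.981) and Trim27 (0.973).

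In white adipose tissue most members had few counts or none. Cyp7a1 and Baat had 0 counts in all 6 libraries, which allows up to 0.140 to 0.181 CPM per library for counting error alone. Nr0b2, Slc10a1, Slco1a1 and Abcb11 had at most 6 counts in any fat library. The other 4 members were tested and 0 were called, as were 0 (0%) of 14030 genes by the quasi-likelihood test of edgeR. At an unadjusted p under 0.05 there were 1881 genes (13.4%), and DESeq2 called 723.

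Cyp27a1 was the best expressed member in fat, at 55.6, 53.1 and 28.4 CPM in vehicle libraries 1 to 3 and 29.4, 28.5 and 34.3 CPM under halofuginone. The groups overlapped, and the log2 fold change was −0.58 (SE 0.26, adjusted p = 0.404). Cyp7b1 was at 1.21, 1.33 and 1.94 CPM in vehicle and 2.2, 3.04 and 5.48 CPM under halofuginone, with all 3 treated libraries above all 3 vehicle libraries, a separation seen in 20.7% of genes tested in fat. Its log2 fold change of 1.25 (SE 0.46) was not called (unadjusted p = 0.0307 and adjusted p = 0.325 in edgeR). Cyp8b1 was at 0.663, 1.22 and 0.515 CPM in vehicle and 0.282, 0.187 and 0.684 CPM under halofuginone (log2 fold change −1.05, SE 0.68, adjusted p = 0.562). Nr1h4 was at 1.45, 1.66 and 0.515 CPM in vehicle and 0.846, 2.01 and 1.53 CPM under halofuginone (0.27, SE 0.58, adjusted p = 0.880). Both overlapped between groups.

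A test of whether the drug effect differed by tissue (fat effect less liver effect) called 0.949% of 14853 genes and 0 of these 4 members. For Cyp7b1 it was −1.08 (SE 0.74, adjusted p = 0.517), for Cyp27a1 0.22 (SE 0.41, adjusted p = 0.863), and for Nr1h4 −0.035 (SE 0.44, adjusted p = 1.00). For Cyp8b1 it was 1.51 (SE 1.75, adjusted p = 0.742) with all libraries and 3.56 (SE 0.66, adjusted p = 0.00617) without liver halofuginone replicate 1. The test takes liver and fat libraries as independent, and the labels do not say whether any came from the same animal. With the replicate number as a block it called 23 genes in place of 141, and 0 of the 4 members (Cyp7b1 −1.03, adjusted p = 0.342). The fat values of Cyp8b1 rest on 4 to 22 counts per library.

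**Figure D5:**
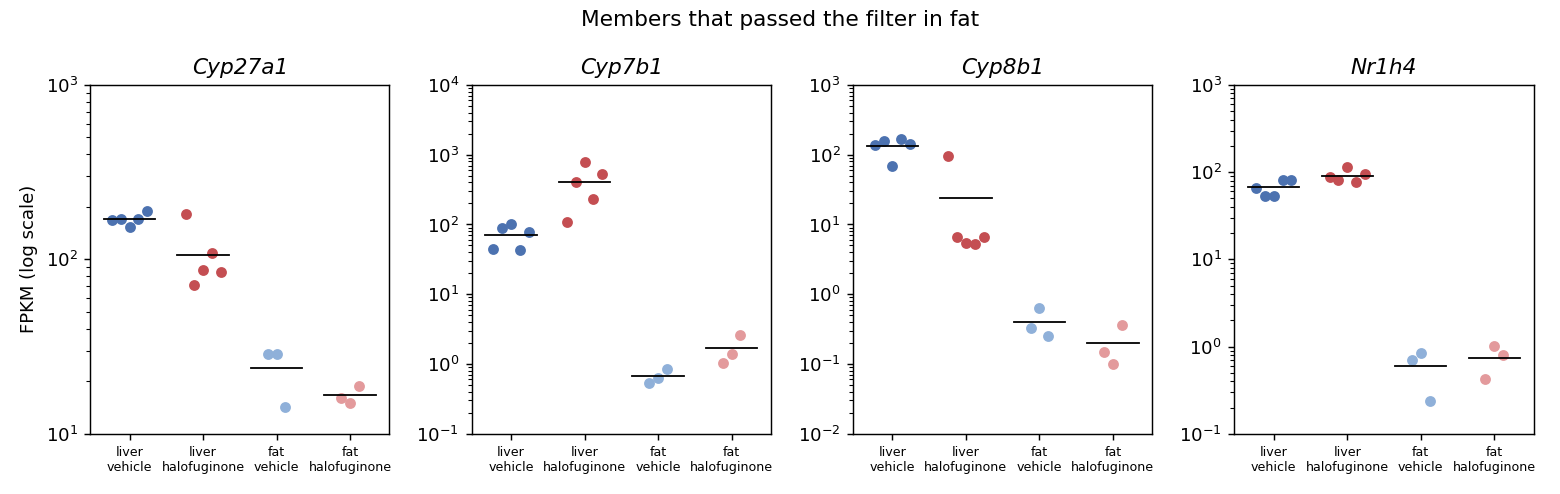
FPKM (log axis) per library of the 4 members tested in fat, with group means as lines, in liver and white adipose tissue under vehicle and halofuginone. Cyp27a1, at 23.8 FPKM in vehicle fat, is the 1 member of the 4 whose mean exceeds 2 FPKM in fat.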

How the data were processed

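Poly(A)-selected RNA of 10 liver and 6 fat libraries was analysed. The authors deposited a table per tissue with a count and an FPKM (fragments scaled by gene length and depth) column for each library, per the file headers. The submitters' processing notes name fastp 0.18.0, Bowtie2 2.2.8, HISAT2, StringTie 1.3.1, RSEM and the build mm39, without roles; strandedness is not given in the sources used here. In 1 to 10 genes per liver library and 9 to 31 per fat library a deposited count of 0 stood beside an FPKM above 0, so the whole-number counts may be rounded estimates. Symbols were matched for 22267 of 22322 identifiers.

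Groups came from sample titles, and 0 columns were left unmapped. No pair of libraries within a group was alike within sampling noise (lowest chi-square per degree of freedom 29.7). Each tissue was fitted in R 4.3.3 with edgeR 4.0.16 (TMM scaling, filterByExpr, glmQLFit, glmQLFTest, two-sided) without covariates, and the contrast of tissues in 1 fit of all 16 libraries, with Benjamini-Hochberg adjustment over all genes and calls at an adjusted p under 0.05. SE is the size of the log2 fold change over the root of F. CPM is the count over the TMM-scaled library size. A count of 0 allows up to 3 counts, that is 0.0981 to 0.149 CPM in liver and 0.140 to 0.181 in fat, for counting error only.

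The 10 members, pathway lists and marker lists were chosen with earlier results of these data known. All members are named. Of each pathway list, called genes that reach 5 CPM in 1 group are named, at most 6 per list by fold change. Rxra, Fgfr4, Klb, Nr5a2 and Hnf4a are also named. Akr1d1, Slco1a4, Slco1b2, Nr1i3 and single marker genes were named after their values were seen. Likeness used log2 CPM with a prior count of 2 and the 3 closest genes. Alternatives were DESeq2 1.42.0, its size factors, library size alone, other filters, a replicate block, all libraries in 1 fit, limma 3.58.1 on log2 FPKM with a pseudocount of 1 or 0.1, and leaving out each library. The pipeline was tested on simulated data. Promoters are RefSeq windows.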

Additional observations from a re-analysis of the deposited data

Results flagged for a closer look

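In 20 groups of 5 livers (10 genes, both arms), 3 held a value whose gap to its nearest neighbour exceeded 0.71 of the group's range. For normally distributed, independent values chance gives about 1 in 20 groups, so 1 would be expected. These CPM values were not log-transformed and the groups share the same 10 livers. The 3 found and the 1 expected are therefore not a test of an excess. Cyp7a1 in halofuginone replicate 1 was at 60.4 CPM, with the next library at 17.9 and a gap of 0.740 of the range. Cyp8b1 in the same library was at 186 CPM, with the next at 12.7 and a gap of 0.979. Cyp8b1 in vehicle replicate 3 was at 144 CPM, with the next at 281 and a gap of 0.714. Vehicle replicate 3 was also the lowest vehicle library for Cyp7a1, Cyp27a1, Baat and Slc10a1 and the highest for Cyp7b1.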

How the results depend on the processing

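The liver test called 2850 genes, and 1275 to 5312 when single libraries were left out. Members called lower numbered 2, and 0 to 4 in those fits, with 0 without any 1 of vehicle replicates 1, 2, 4 or 5 or halofuginone replicates 3, 4 or 5. Scaling by library size alone called 3627 genes, of which 2789 (76.9%) were higher against 54.7% with TMM, and moved the median over all genes from 0.02 to 0.17 (log2). No member changed direction under that scaling. Klb and Fetub were not called in 1 fit of all libraries. Cyp8b1 passed with library size alone (−2.49, adjusted p = 0.0387), in 1 fit of all libraries (adjusted p = 0.0320) and with limma on FPKM plus 1 (−3.45, adjusted p = 0.00849). In edgeR it missed with DESeq2 size factors (adjusted p = 0.0520), without a filter (0.0501) and with at least 1 CPM in every library of a group (0.0507). It also missed without any 1 library other than halofuginone replicate 1 (edgeR adjusted p-values of 0.0676 to 0.106).

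Fat, with 0 calls, gave 723 with DESeq2, 1 without a filter, 334 in 1 fit of all libraries, 17 with limma on FPKM plus 1, and 0 to 1 without single libraries. The tissue contrast, with 141 calls, gave 687 with DESeq2 and 34 to 1053 without single libraries. Single libraries turned the sign of some uncalled values: log2 fold changes ran from −0.0046 to 0.092 for Baat and −0.18 to 0.64 for Slco1a1 in liver, from −0.085 to 0.58 for Nr1h4 in fat, and the contrasts from −0.042 to 0.52 for Cyp27a1 and −0.41 to 0.30 for Nr1h4. The causes were not tested.

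Same-numbered libraries correlated at −0.177 to 0.069 between liver arms and −0.641 to 0.276 between fat arms, at 0.103 to 0.222 between vehicle liver and fat and −0.137 to 0.102 between treated liver and fat. Within a tissue, the labels do not say what a shared number stands for. Between tissues all 3 vehicle pairs were above 0.1 and 1 of 3 treated pairs was, and a shared animal was not given by the labels. Liver and fat pairs with unlike numbers ran from −0.233 to 0.245 in vehicle and from −0.131 to 0.153 under halofuginone. The highest value of each arm was thus not that of a same-numbered pair. The replicate block gave 1901 calls in liver, 0 in fat and 23 in the contrast. Cyp7a1 was then −2.76, Cyp27a1 −0.92, Cyp7b1 2.16 and Cyp8b1 −3.95 (adjusted p = 0.0209).

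The depth and 3 fat libraries per arm limit low members: 6 of 10 were not tested in fat.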

Other observations

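Slco1a1 and Cyp7b1 are known to be higher in male than in female mouse liver, and the 5 vehicle livers had the same order for both, from replicate 4 through 1, 5 and 2 to 3. Hsd3b5, another male-biased gene, was at 1.11, 98.8, 88.9, 4.51 and 35 CPM in vehicle replicates 1 to 5 and Serpina1e at 1587, 2911, 5319.6, 989 and 1538 CPM. Replicates 2 and 3 were thus the highest pair for Slco1a1, Cyp7b1, Hsd3b5 and Serpina1e. Cyp2u1, alone among the male-biased genes listed below, had them as its lowest pair. It was at 15.9, 7.66, 10.4, 14.4 and 14.8 CPM in vehicle replicates 1 to 5. Under halofuginone the orders parted: replicate 2 had 820.0 CPM of Cyp7b1 beside 31.8 of Slco1a1 and 0.559 of Hsd3b5, and replicate 1 had 232 of Cyp7b1 beside 499 of Slco1a1 and 138 of Hsd3b5. These are values of single libraries with no test.

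Of 10 male-biased genes in liver, 10 were tested, 2 fell and 0 rose by edgeR, with a median log2 fold change of −0.46. In all genes tested, 10.5% fell and 12.7% rose. The members Slco1a1 and Cyp7b1 are not on this list, and Cyp7b1 rose. Without halofuginone replicate 1, 4 of the 10 fell, against 21.6% of all genes, and the median was −0.92. The count was 0 without any 1 of vehicle replicates 2, 3 or 5 or halofuginone replicates 3 or 5, and 1 without any 1 of vehicle replicates 1 or 4 or halofuginone replicates 2 or 4. Cyp2d9, a steroid hydroxylase, went from 995 ± 201 to 470.0 ± 215 CPM (−1.08, SE 0.31, adjusted p = 0.0313) and Elovl3, a fatty acid elongase, from 77.3 ± 21.7 to 36.8 ± 16.3 CPM (−1.07, SE 0.30, adjusted p = 0.0292). Of 10 female-biased genes 5 were tested and 0 were called, against 23.2% of all genes, and their median was −1.57. Without halofuginone replicate 1, 7 were tested and 3 fell, against 21.6% of all genes.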
